A study of Mus musculus with 14 samples.

Results

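Mouse chromosome 15 held 533 of the 7929 SOX10 regions that were deposited for PY230 mammary tumors. Its members were all regions of the list on that chromosome, in mm9 coordinates. The chromosome was chosen by its number of regions per Mb and by the step in signal at 81 Mb seen in an earlier look at this list, so both are given here as descriptions, without tests. The list set 2 SOX10 ChIP samples against 1 control sample, out of 14 samples in the series. In the ChIP samples the tumor cells carried AVI-tagged SOX10 and BirA, a ligase that puts biotin on the AVI tag. The labels say neither what the control cells carried nor which promoter drove the tagged protein. PY230 is a mouse mammary tumor line, and in all 3 samples the cells had been grown as tumors in adult syngeneic C57BL6J mice. Per sample, chromatin from 500k cells was bound to streptavidin beads, which were washed additionally with 2% SDS. Libraries were made by ChIPmentation, in which a transposase inserts the sequencing adapters into the chromatin on the beads. The list holds no expression values, so the tumor label could not be set against marker genes. Both ChIP samples are joined in it, and the spread between them cannot be given for any value below.

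SOX10 is a transcription factor of the SOX family, which binds short DNA motifs in the minor groove through an HMG box and bends the DNA. It is known from the neural crest, from glia and melanocytes, and in the mammary gland from stem and progenitor cells. Chromosome 15 carries several genes that matter in this tissue. In the order of the RefSeq annotation of GRCm38.p6, Prlr, the prolactin receptor, is followed by Grhl2, a regulator of epithelial identity, by Trps1, a GATA-type repressor, and by the proto-oncogene Myc. Sox10 itself lies farther on, ahead of Wnt10b and Wnt1. Near the end of the chromosome lie the type II keratin genes, among them Krt5 of basal cells and Krt8 of luminal cells. That annotation is of another build than the list. No region was therefore set beside a gene, and no sequence of a region was read.

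Regions were dense on chromosome 15. There were 5.15 regions per Mb (95% interval 4.72 to 5.61), against 2.95 per Mb (2.88 to 3.01) over the other 19 chromosomes, a ratio of 1.75. The chromosome held 6.72% of the regions on 3.96% of the summed length. Chromosomes 4 and 19 were denser, with 5.39 and 5.17 regions per Mb, and chromosome 13 followed with 4.98. Intervals here cover counting error alone and treat neighbouring regions as independent, which they are not.

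The deposited signal, whose unit is not stated, was not raised on chromosome 15. Its median was 0.0274 (quartiles 0.0209 and 0.0367), against 0.0281 (0.0199 and 0.0375) in the rest of the list. Among the 793 regions in the top 10% of signal, 40 lay on chromosome 15, which is 7.50% of its regions. Among the 80 regions in the top 1%, 1 did. The regions were wider than elsewhere, with a median of 742 bp (quartiles 518 and 1143), against 680 bp (489 and 969) in the rest. Regions of 1500 bp or more made up 12.8% of chromosome 15 (68 regions), against 6.95% of the rest (514 regions). This share was higher on chromosome 4 (15.9%) and reached at most 8.65% on the other 18. Over the 68 wide regions the signal had a median of 0.0327, and they carried 33.0% of the read equivalents of the chromosome. Width enters read equivalents directly, and these regions made up 137.4 of the 477.3 kb that all regions of the chromosome covered.

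Read equivalents state how much of a signal lies behind a region. Signal times width came out as whole multiples of 1 step in nearly all regions under 1500 bp. It was divided here by that step and by a length of 54 bases, so that 1 read equivalent stands for 1 stretch of 54 bases. Of the 68 wide regions of chromosome 15, 48 (70.6%) gave whole multiples, and the 3 widest did not, so that for wide regions read equivalents only restate signal times width on this scale. The median region of chromosome 15 had 8.26 read equivalents (quartiles 4.80 and 13.8), against 7.43 (4.19 and 12) in the rest. Fewer than 10 were found in 59.3% of chromosome 15 regions and in 64.8% of the rest. On chromosome 15, 13 regions came out at 1 read equivalent and 3 had a signal of 0. The deposited list is named as ChIP against control without a formula, so these may be values after subtraction of the control. On this scale single regions rest on little signal, but the scale does not give the number of reads behind them.

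Along the chromosome, regions were gathered in a few stretches. The 5 densest of 21 windows of 5 Mb held 277 regions, or 52.0% of the total. Windows held a median of 21 regions on chromosome 15, against 12 in the 511 windows of the other chromosomes. From 35 to 40 Mb there were 52 regions. The next block ran from 50 to 65 Mb, with 54, 63 and 64 regions in its 3 windows. Together these 181 regions made 34.0% of the chromosome's regions, at 12.1 per Mb (10.4 to 14.0). Elsewhere before 81 Mb the density was 3.96 per Mb (3.48 to 4.48), with the length counted from the first region of the chromosome. That length includes the longest empty stretch of the chromosome, of 12.6 Mb. The block was chosen after its counts had been seen, so the intervals are no test of the contrast. Windows with 50 or more regions numbered 4 on chromosome 15 and 14 on the rest, of which 7 were on chromosome 4. When windows were shifted by 2.5 Mb, the densest one, from 57.5 to 62.5 Mb, held 90 regions. The densest window of 2 Mb, from 50 to 52 Mb, held 42.

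**Figure D1:**
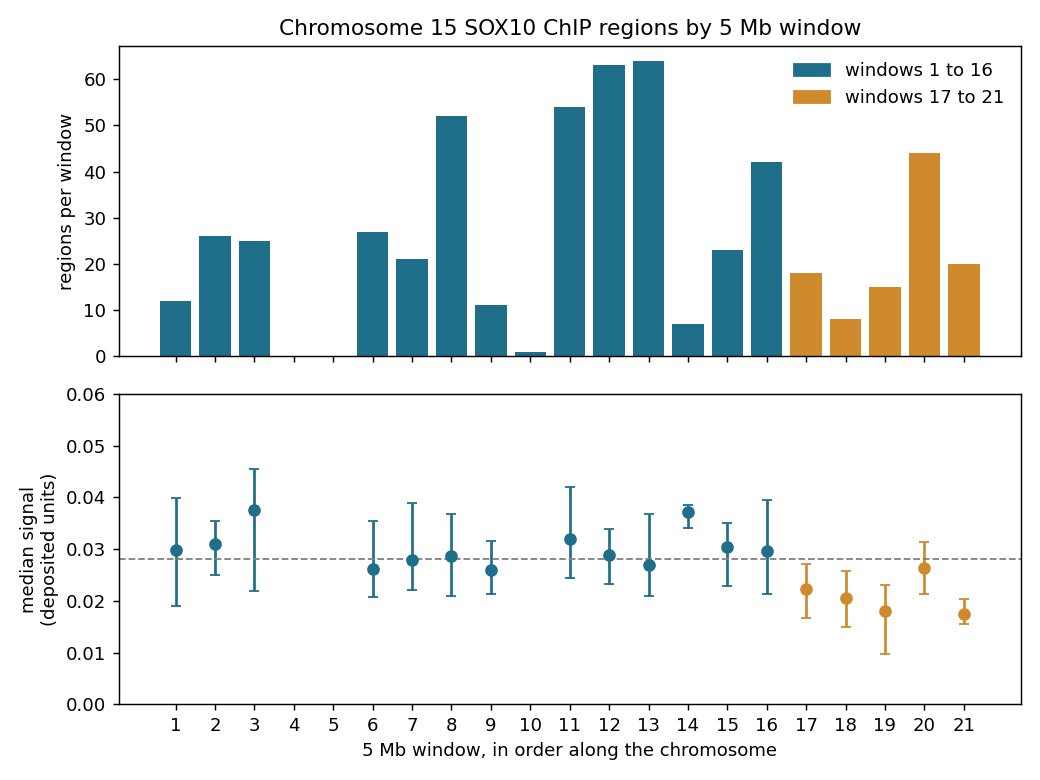
Upper plot, number of SOX10 ChIP regions in each of the 21 windows of 5 Mb of chromosome 15, in order (the last window is shorter). Lower plot, median signal in deposited units with bars from the lower to the upper quartile, for windows of at least 5 regions. The dashed line is the median of the rest of the list (0.0281), and window 17 includes 2 regions before 81 Mb. Windows 11 to 13 hold 54 to 64 regions each, windows 4 and 5 hold 0, and windows 17 to 21 have medians of 0.0175 to 0.0263.

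Median signal did not follow the number of regions within the densest block. In the windows from 50 to 65 Mb the median signal was 0.0319, 0.0288 and 0.0268, in order. The window with the most regions, from 60 to 65 Mb, thus had the lowest of these 3 medians. Over the whole block the median was 0.0288 (quartiles 0.0223 and 0.0371), against 0.0302 (0.0216 and 0.0390) in the other regions before 81 Mb. Before 80 Mb, 12 windows held at least 10 regions, and their medians ranged from 0.0260 to 0.0375. The top of this range was the window from 10 to 15 Mb, with 25 regions.

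Long stretches of chromosome 15 held no region. The longest ran from 12754751 to 25306564, which is 12.6 Mb or 12.1% of the length. It was the second largest gap among the largest gaps of the 20 chromosomes, after a gap of 12.6 Mb on chromosome X. Chromosomes 7 and 14 followed with 11.8 and 11.5 Mb. The list had 7 gaps of more than 10 Mb. Both regions beside the empty stretch were weak. The one before it (12754343 to 12754750) had a signal of 0.0127 and 2.0 read equivalents, and the one after it (25306565 to 25306918) had 0.0114 and 1.56. With the largest gap of every chromosome left out of its length, chromosome 15 had 5.86 regions per Mb, or 1.87 times the rest. Gaps over 1 Mb took up 41.3% of chromosome 15 (20 gaps), against 57.4% of the other chromosomes (596 gaps).

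The region with the highest signal of the chromosome lay alone between 2 such gaps. It measured 140 bp (47371558 to 47371697), with a signal of 0.282, 10.1 times the list median, and 15.3 read equivalents. It ranked 19 in the whole list. It was the single region of the window from 45 to 50 Mb, 2.82 Mb after the region before it and 3.13 Mb ahead of the next. Among the other regions the highest signals lay close together. The next highest was 0.0696 (79039504 to 79040005, 502 bp), ranked 157 in the list. The third (10077691 to 10078048) had 0.0640, the fourth (65627471 to 65627753) 0.0605 and the fifth (78999784 to 79000238) 0.0585. The second and the fifth thus lay close together, with 39.3 kb between them. All 10 regions with the highest signal lay before 81 Mb, and the tenth had 0.0563 (12214295 to 12215621). That side held 430 of the 533 regions, and the position was itself placed by these signals.

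Close neighbours were frequent on chromosome 15. The median gap between regions was 38.2 kb (quartiles 7.60 and 150.1), against 64.2 kb in the rest of the list. Of 532 gaps on chromosome 15, 147 (27.6%) were under 10 kb, against 22.4% in the rest. Under 1 kb the shares were 6.58% and 5.69%. More regions per Mb bring shorter gaps, so these shares are not separate from the density by which the chromosome was chosen. Regions joined across gaps under 10 kb are called runs. There were 95 runs, and they took in 242 regions, or 45.4%, against 37.6% in the rest. By this share only chromosome 4 was higher (47.2%), and chromosome 19 followed with 44.2%. Most runs were short, with 67 of 2 regions, 17 of 3, 5 of 4 and 6 of 5 or more. The median signal was 0.0276 for regions in runs (quartiles 0.0217 and 0.0360) and 0.0269 for single regions (0.0199 and 0.0371). The 37 regions in the runs of 5 or more had higher medians, of 0.0323 (95% interval 0.0262 to 0.0403) and 1209 bp. Of these, 14 lay in 2 neighbouring runs with a joint median signal of 0.0392. The medians of the other 4 runs ranged from 0.0173 to 0.0410, so higher signal was not shared by all long runs.

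Among the 6 largest runs, a pair of neighbours stood out by width. The first ran from 50701397 to 50721043 and held 6 regions, and the second, 30.0 kb farther on, ran from 50751050 to 50776836 and held 8. In the first run the regions measured 1724, 184, 2984, 3575, 5473 and 365 bp, in order. Their signals were 0.0553, 0.0570, 0.0501, 0.0545, 0.0584 and 0.0296, so that 5 of the 6 were in the top 10% of the list, which starts at 0.0481. Regions covered 72.8% of this run.

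The region of 5473 bp (50714695 to 50720167) was the widest of the chromosome and ranked 3 by width in the whole list. It had 123.7 read equivalents, rank 7 in the list. In the second run the widest region measured 4713 bp (50756449 to 50761161), with a signal of 0.0455 and 83.1 read equivalents. It followed a region of 2066 bp with a signal of 0.0545 after 59 bp. The other 6 regions of this run had signals of 0.0104 to 0.0329.

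Both runs together held 14 regions over 75.4 kb, or 2.63% of the regions of chromosome 15. They carried 8.46% of its read equivalents (485 in all), over 26.1 of the 477.3 kb that its regions covered. The 4 widest regions of the chromosome were the same 4 that had the most read equivalents, and all lay in these runs. In 3 places, regions of these runs were separated by fewer than 100 bp (53, 55 and 59 bp). The chromosome had 8 such gaps, or 1.50% of its gaps, and the rest of the list had 139, or 1.88%. From the list alone such neighbours cannot be told from 1 broad site that was split in calling.

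**Figure D2:**
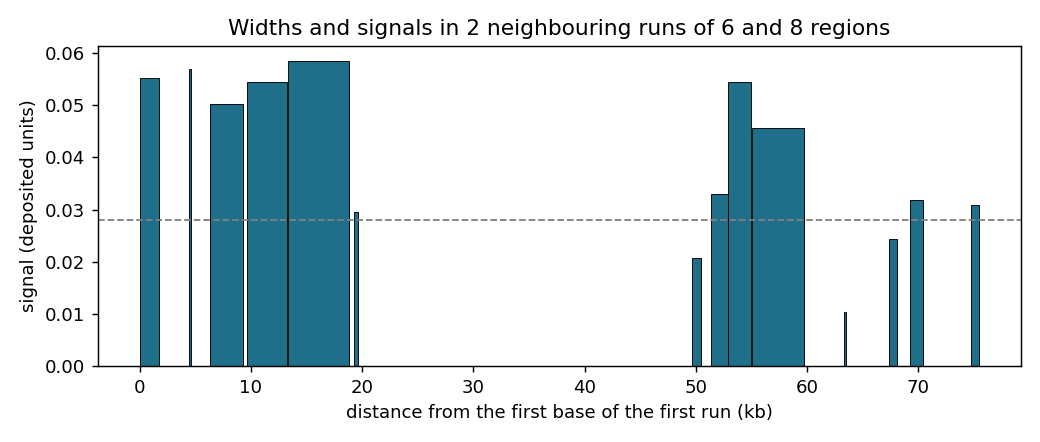
Regions of the pair of runs of 6 and 8 regions between 50 and 51 Mb, each drawn as a bar from its start to its end (distance from the first base of the first run, in kb) with its signal as height (deposited units). The dashed line is the median of the rest of the list (0.0281). The wide regions reach 0.0455 to 0.0584, and the later part of the second run falls to 0.0104 to 0.0319.

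The other 4 runs of at least 5 regions differed in their signals. A run of 7 regions (37234382 to 37255273) had a median of 0.0173 and the widest range, from 0.0077 to 0.0562. A run of 6 (25551840 to 25572979) began 245 kb after the last empty base of the longest gap and had a median of 0.0248. Its signals were 0.0206 to 0.0268 in 5 regions and 0.0484 in the last, the widest of the run at 1708 bp. A run of 5 (59465044 to 59480506) had a median of 0.0363 and included a region of 2928 bp with a signal of 0.0403. The last, also of 5 (62035615 to 62048870), had a median of 0.0410 with signals of 0.0236 to 0.0457. All 6 runs lay before 81 Mb, 4 of them between 50 and 65 Mb. Of the 95 runs of any size, 78 lay before 81 Mb, and the stretch from 50 to 65 Mb held 31. After 81 Mb, the run with the most regions held 4 (97198956 to 97210921, median 0.0272).

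Signal differed between the 2 sides of 81 Mb, a position that an earlier look at the signals of these same regions had placed. The 430 regions before it had a median of 0.0293 (95% interval 0.0276 to 0.0312, quartiles 0.0221 and 0.0381). The 103 regions after it had a median of 0.0219 (0.0187 to 0.0244, quartiles 0.0158 and 0.0275). Both intervals treat regions as independent and ignore how the position was placed, so they are no test of the difference. The ratio of medians, before over after, was 1.34. Of the regions before 81 Mb 53.3% lay above the list median, against 23.3% of those after it. In the top 10% of the list were 38 of the regions before (8.84%) and 2 of those after (1.94%), so both shares were below 10%. The quartile ranges of both sides overlapped.

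**Figure D3:**
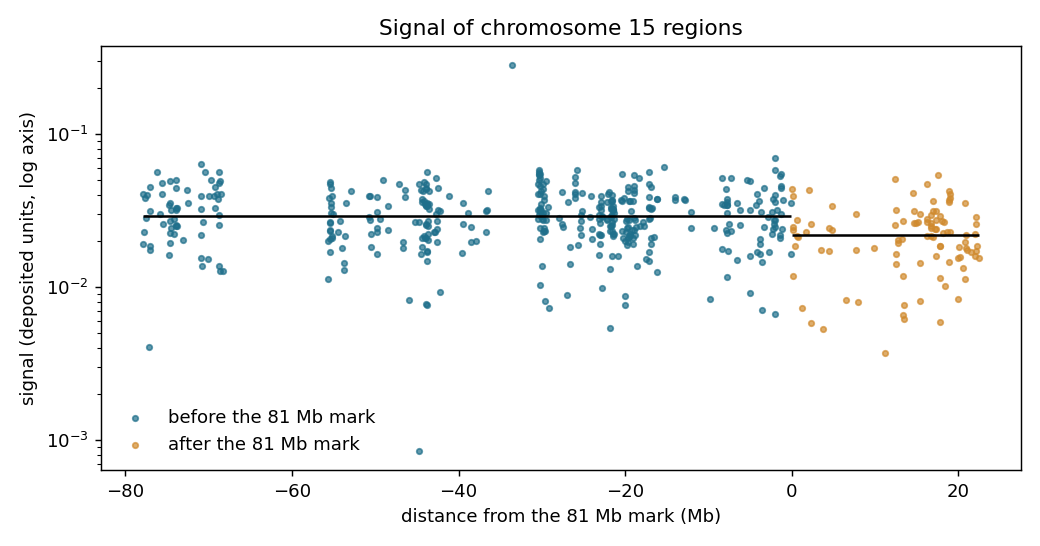
Signal of each chromosome 15 region (deposited units, log axis) against its distance from 81 Mb, with black lines at the medians of 0.0293 before and 0.0219 after. The 3 regions with a signal of 0 are not drawn. Most points of both sides share the same range, the regions after 81 Mb stop at 0.0544, and a single region before it stands at 0.282.

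The regions nearest to 81 Mb did not show a sharp edge. The last 5 before it had signals of 0.0446, 0.0240, 0.0373, 0.0354 and 0.0165, in order along the chromosome. The first 5 after it had 0.0438, 0.0245, 0.0393, 0.0119 and 0.0236. Both sets of 5 covered nearly the same range. The last region before (80960210 to 80961007) and the first after (81077969 to 81078729) were 117 kb apart.

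The regions after 81 Mb were themselves uneven. From 81 to 95 Mb there were 39 regions at 2.79 per Mb (1.98 to 3.81), and their median was 0.0202 (quartiles 0.0118 and 0.0256). From 95 to 100 Mb the density was 8.80 per Mb (6.39 to 11.8), and the 44 regions had a median of 0.0263 (0.0214 and 0.0314). The last 20 regions, from 100 Mb to the end, had a median of 0.0175 (0.0156 and 0.0204). The window from 95 to 100 Mb thus reached the median of the window from 40 to 45 Mb (0.0260). These 3 stretches were chosen after their values had been seen. Without the window from 95 to 100 Mb the ratio of medians, before over after, was 1.59, and without the last window it was 1.24.

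Regions were also wider before 81 Mb. Those before 81 Mb had a median width of 771 bp (quartiles 530 and 1209), against 651 bp (477 and 883) after it. Read equivalents, being signal times width, combine both and are no separate trait. Before 81 Mb their median was 9.0 (quartiles 5.0 and 14.9), against 5.0 (3.0 and 9.64) after it. Fewer than 10 were found in 55.1% of regions before and in 76.7% after. At least 20 were found in 56 regions before (13.0%) and 3 after (2.91%), against 8.74% of the whole list. In read equivalents per Mb, the sum was 64.5 before and 31.4 after, over 401.5 and 75.8 kb of covered sequence with mean signals of 0.0323 and 0.0240 per base. Density was 5.52 regions per Mb before (5.01 to 6.07) and 4.59 after (3.74 to 5.56), intervals that overlap, a ratio of 1.20. The side before 81 Mb includes the longest empty stretch, and without it the density there was 6.58 per Mb, a ratio of 1.43. In that ratio the side after kept its own largest gap, of 1.97 Mb. All these values per Mb count the length before 81 Mb from the first region. Runs held 47.4% of the regions before and 36.9% of those after.

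**Figure D4:**
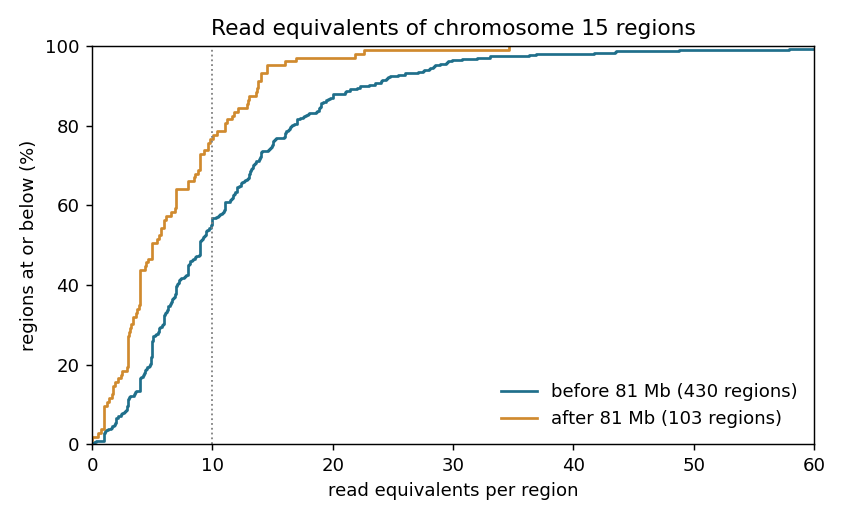
Cumulative share of chromosome 15 regions (%) by read equivalents, for the 430 regions before and the 103 after 81 Mb. The axis ends at 60, and the dotted line marks 10. More than 0.05 below that line lie 55.1% of the regions before and 76.7% of those after.

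Within 5 width classes of the list the median signal before 81 Mb was higher in each. In the narrowest class (98 to 450 bp) it was 0.0240 before and 0.0158 after, a ratio of 1.52. In the middle class (604 to 781 bp) the medians were 0.0249 and 0.0233, the smallest ratio of the 5 at 1.07. For the widest class (1072 to 9185 bp) they were 0.0327 and 0.0261. The classes after 81 Mb held 15 to 28 regions each. Single regions, with no neighbour within 10 kb, had a median of 0.0298 before (226 regions) and 0.0187 after (65 regions). In runs it was 0.0285 before and 0.0245 after. Width and signal shared a Spearman rho of 0.260 over the 533 regions of chromosome 15, against 0.152 in the rest. Neighbouring regions share their surroundings and all share the libraries, so no p is given.

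The same position was also read on the other chromosomes. It had been placed by the signals of chromosome 15 and is an arbitrary coordinate elsewhere, so the ratios are not fully alike. Of the 20 chromosomes, 19 have regions on both sides of 81 Mb. On chromosome 15 the ratio of medians, before over after, was 1.34, and on chromosome 17 it was nearly as high at 1.32 (167 regions before, 36 after). Chromosome 6 had 1.19, and the lowest was 0.717 on chromosome 11. A ratio between 0.9 and 1.1 was found on 13 of the other 18. In the same direction, only chromosome 17 came close among the others. On chromosome 11 the step went the other way and was larger, from a median of 0.0278 (217 regions) to 0.0387 (345 regions). A step of this size at 81 Mb is thus not unique to chromosome 15.

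**Figure D5:**
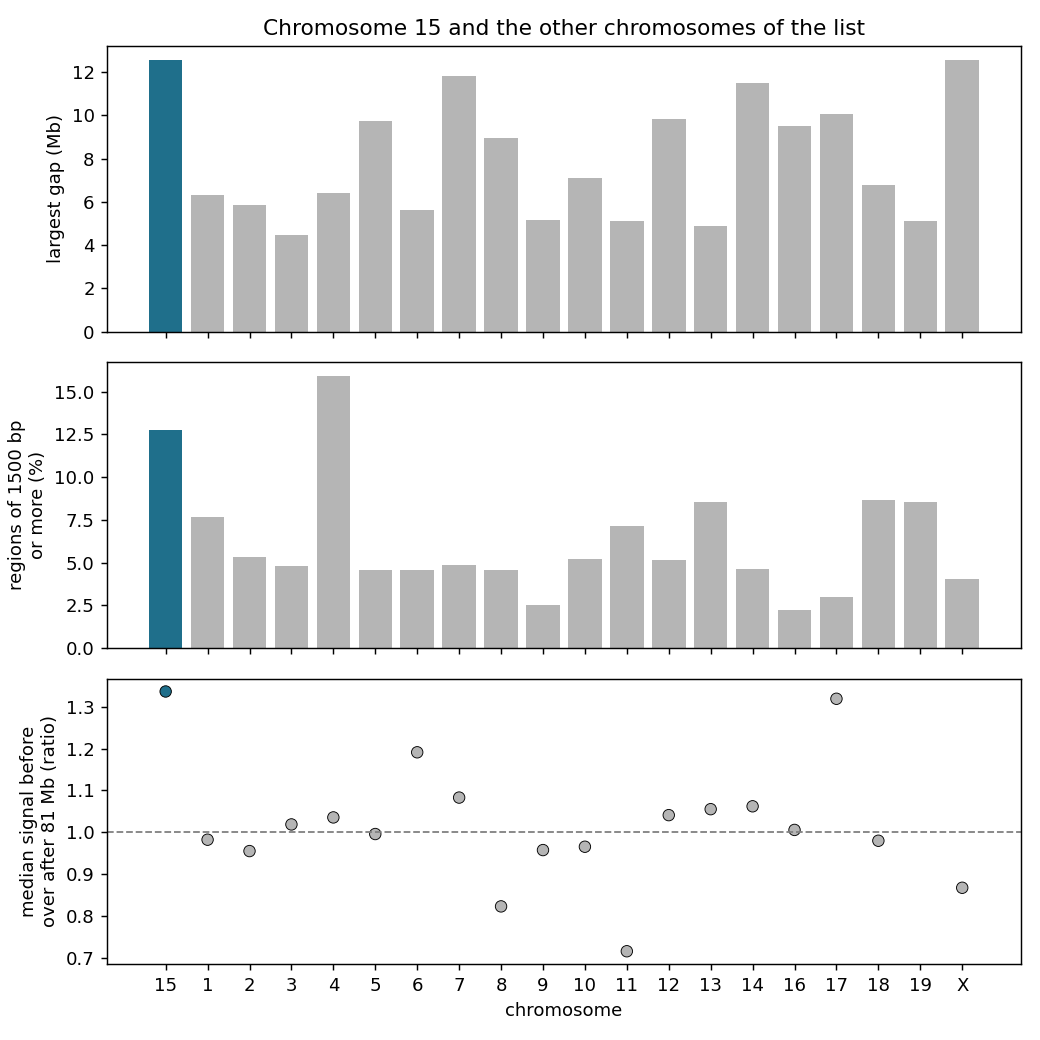
Chromosome 15 (coloured, left) beside the other 19 chromosomes, with the largest gap between neighbouring regions (Mb), the share of regions of 1500 bp or more (%), and the ratio of median signal before over after 81 Mb. Chromosome 19 has no region after 81 Mb. Chromosome 15 has a gap of 12.6 Mb, 12.8% wide regions and a ratio of 1.34, close to 1.32 on chromosome 17.

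The deposited numbering runs from 1 to 7929 without a missing number, and chromosome 15 takes 4959 to 5491 in unbroken order. No numbered region is therefore missing from the empty stretches, while regions removed before the numbering would leave no trace in it.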

How the data were processed

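The authors deposited 1 list of regions for the SOX10 ChIP, with a signal per region whose unit and formula they do not state. Per the submitters' processing notes, which give no parameters, MACS2 2.1.1, Bowtie 0.12.8, SAMtools 1.3.1 and FastQC are listed, and the build is mm9. Depth is unknown, since the list holds no totals. Coordinates are printed with 1-based starts, and chromosome length is the largest end coordinate. For the side before 81 Mb, the length was counted from the first region.

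The step of signal times width was estimated from 7282 regions under 1500 bp with a signal above 0. It was 0.0479, and 99.9% of products lay within 0.05 steps of a whole multiple. The length of 54 bases is a reading of the values, not a stated read length. In counts of regions with fewer than 10 or at least 20 read equivalents, these limits were lowered by 0.05.

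Densities have exact Poisson intervals at 95%, and medians have order-statistic (binomial) intervals at 95%. The Poisson intervals cover counting error only. The intervals of medians cover the spread among regions of the merged list, taken as independent, and not the spread between samples. Joining of runs and the search for the step were tested on simulated data. Python 3.11.15, pandas 2.3.3, NumPy 2.4.6, SciPy 1.17.1 and matplotlib 3.10.9 were used. No test was run: the members, the position of 81 Mb and the lists of genes were chosen with earlier results of these data known, and width and signal come from the same call of regions. Regions named are the 10 with the highest signal, the 5 widest, the 5 on each side of 81 Mb, runs of 5 or more and the largest gap. Others named were chosen after their values were seen. All 22 genes listed for the chromosome matched the RefSeq table of GRCm38.p6, which was used for their order alone. Samples of H3K27ac and of input were not used here.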

Additional observations from a re-analysis of the deposited data

How the results depend on the processing

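No paired analysis was possible because both ChIP samples are merged in a single list, from which neither can be left out. Among the 50% of the list with the highest signal, chromosome 15 had 2.45 regions per Mb instead of 5.15, and its densest window of 5 Mb had 7.0 per Mb instead of 12.8. There were then 26 runs instead of 95, with 27.3% of regions instead of 45.4%. The density relative to the rest stayed between 1.63 and 1.87 under all 6 alternatives. In windows of 2 Mb the densest had 21 regions per Mb. With gaps under 2 kb there were 53 runs with 21.6% of regions, and with gaps under 50 kb 75.2% of regions were in runs. The ratio of median signal, before over after, kept its direction under all 32 alternatives, among them signal times width in place of signal. All of them re-cut the same regions whose signals had placed 81 Mb, so they are no separate evidence for the difference. The ratio was 1.80 for signal times width, and 1.24 to 1.59 with each 5 Mb window left out in turn. At the other positions, from 70 to 87 Mb, it was 1.21 to 1.33. The ratio of widths was 1.15 to 1.29 and that of read equivalents 1.46 to 2.25 with windows left out. The changes in density, windows and runs follow by construction from fewer regions or another window or gap limit. Leaving the largest gaps out of the length, and the pair of large runs between 50 and 51 Mb out of the ratio (1.31), were chosen after seeing the data. With so few read equivalents per region, ranks of single regions are imprecise.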
